A study of Mus musculus with 10 samples.

Results

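Myom1 and Myom2 encode myomesin 1 and myomesin 2 (M-protein), 2 related proteins of the M-band, the line of crosslinks in the middle of the sarcomere that holds the thick filaments in register. Each myomesin is built of immunoglobulin and fibronectin type III domains, binds myosin and connects to titin. Myomesin 1 is found in all striated muscle fibres, whereas M-protein is typical of fast fibres and of the heart. All spots that the array annotation assigns to Myom1 or Myom2 were taken, which gave 2 of 6540 named genes, each with 1 oligonucleotide spotted in duplicate, Myom1 (NM_010867) and Myom2 (NM_008664). The pair was selected on its ratios in these samples, with the strain pattern of both genes known, so that their levels and the contrast between them are given as a description without a p-value.

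Quadriceps muscle was taken at 8 weeks of age from 10 male wild-type mice, 2 of each of 5 inbred strains. The strains were CBA (CBA/CaOlaHsd), BL10 (C57Bl/10ScSnOlaHsd), BL6 (C57Bl/6JOlaHsd), DBA (DBA/2OlaHsd) and BALB (BALB/cOlaHsd), and no mouse carried a transgene or received a treatment. Each array compared 1 animal in Cy5 with 1 animal of a different strain in Cy3. The value is the log2 ratio of Cy5 over Cy3, centred on the median of the array. A ratio of 1 on this scale is a 2-fold difference, and the ratios hold no absolute level, so the marker genes of muscle could not be read for presence or absence, and fewer fibres of a type cannot be told apart from less RNA per fibre.

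Animals are named by strain and number. Among the 10 arrays, that of BL6 2 against CBA 1 and that of BALB 1 against CBA 2 hold the same value at every spot under different labels, and both were left out. The 8 other arrays fall into a chain of 3 arrays (CBA 1, BL10 1, BALB 2, BL6 2) and a chain of 5 arrays (CBA 2, BL10 2, DBA 1, BL6 1, DBA 2, BALB 1), which share no animal and are called the smaller and the larger loop after the closed loops of the full design. CBA remained on 2 arrays, both in Cy5 against BL10, so that every CBA level depends on the fitted dye effect. Over the 8 arrays the SD of the difference between duplicate spots was 0.20 to 0.46 on the log2 scale.

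The sequence around an annotated start of Myom1 is shown because it is the strain difference of Myom1 that the results turn on. The window of 300 bases lies at chr17:71019307-71019606 on the plus strand of GRCm38.p6, the reference of C57BL/6J mice, and comes from RefSeq. It runs from 250 bases before to 50 bases after that start, which lies 16225 bases inside the annotated gene, so that the window is not the region before the outermost start of Myom1. Of the 2 myomesins, only Myom1 was matched in the table of such windows. The capitals mark matches to the E-box CANNTG and to the CArG box, which is bound by serum response factor.
Myom1: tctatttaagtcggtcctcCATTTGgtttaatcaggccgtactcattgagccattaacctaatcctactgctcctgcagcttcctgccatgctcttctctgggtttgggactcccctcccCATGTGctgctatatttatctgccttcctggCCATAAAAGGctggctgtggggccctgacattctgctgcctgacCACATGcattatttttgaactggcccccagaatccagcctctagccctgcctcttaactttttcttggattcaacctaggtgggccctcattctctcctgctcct
Both strands were searched and no capitals overlap. The window holds 3 E-boxes, and 72.3% of 32851 windows of the same length hold at least 1. It holds 1 CArG box, at bases 152 to 161, and 1.63% of the windows do. The MEF2 site and TATAAA were also searched and gave 0 matches, while 3.19% and 13.6% of the windows hold them. These matches describe the letters of the reference strain and carry no measurement of binding or of sequence differences between the strains.

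Myom1 was lower in BL6 on all 3 of the arrays used that carried a BL6 animal. The array left out under the label BL6 2 against CBA 1 read 0.52, which under that label would put BL6 2 above CBA 1. On DBA 1 against BL6 1 the log2 ratio was 1.45, from spots at 1.39 and 1.51, which is 2.73-fold more signal from DBA 1. On BALB 2 against BL6 2 it was 1.05, from spots at 1.39 and 0.71. On BL6 1 against DBA 2, where BL6 carried Cy5, it was −0.44, from spots at −0.47 and −0.41. The direction thus followed the strain when the dyes of the BL6 animal were exchanged. The spots of BALB 2 against BL6 2 differed by 0.69, against an SD of 0.46 for such differences on that array, and the duplicate spots of Myom1 differed by 0.04 to 0.13 on the 7 other arrays.

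The 5 arrays without BL6 gave smaller Myom1 ratios, with 1 exception. DBA 2 against BALB 1 stood at −0.73, from spots at −0.70 and −0.77, with DBA 2 the lower animal. BL10 2 against DBA 1 stood at 0.28 and CBA 1 against BL10 1 at −0.17. BL10 1 against BALB 2 and CBA 2 against BL10 2 were close to 0, at 0.06 and 0.02.

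Myom2 did not follow BL6. The log2 ratio of Myom2 was −0.79 on DBA 1 against BL6 1, from spots at −0.99 and −0.58, and −0.36 on BL6 1 against DBA 2, from spots at −0.41 and −0.31. These arrays hold the same BL6 animal in opposite dyes, and the Cy5 sample was the lower one on both. On BALB 2 against BL6 2 the ratio was −0.11, from spots at −0.17 and −0.04. The CBA animals were on the higher side on both of their arrays, at 0.28 for CBA 1 against BL10 1 and 0.23 for CBA 2 against BL10 2. The remaining arrays gave 0.26 for DBA 2 against BALB 1, −0.29 for BL10 1 against BALB 2 and −0.32 for BL10 2 against DBA 1.

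**Figure D1:**
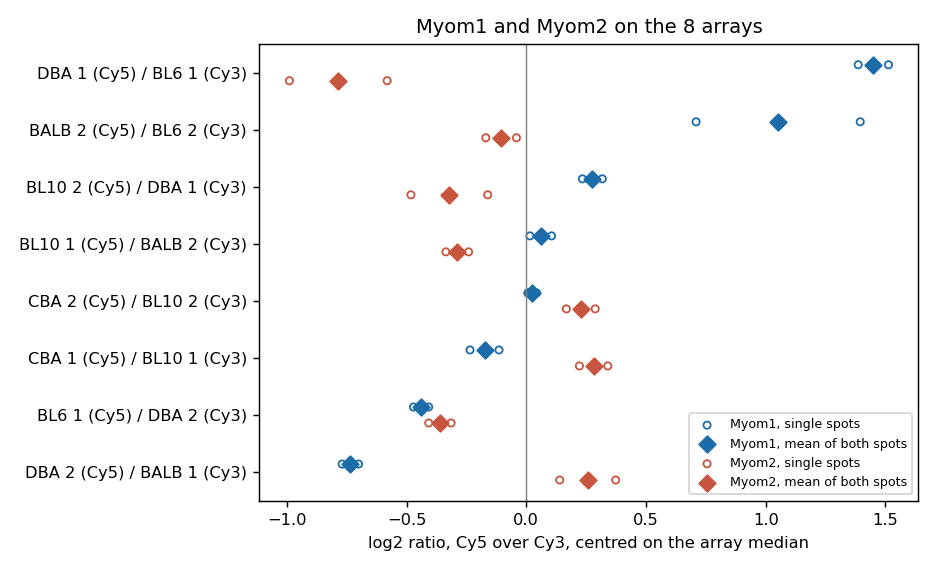
Log2 ratio of Cy5 over Cy3 (x axis, centred on the array median) of Myom1 (blue) and Myom2 (red) on each of the 8 arrays (y axis), with open circles for single spots and diamonds for their mean. The genes lie furthest apart on DBA 1 against BL6 1, with Myom1 at 1.45 and Myom2 at −0.79, and close together on BL6 1 against DBA 2.

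Set against each other on the same array, the paralogues had ratios of opposite sign on 6 of the 8 arrays. These ratios hold the dye effects, which were fitted with opposite signs. With the fitted dye effects removed, BALB 2 against BL6 2 (Myom1 0.88, Myom2 0.17) and BL10 1 against BALB 2 had 1 sign. CBA 2 against BL10 2 then had opposite signs (Myom1 −0.15, Myom2 0.50). In the difference of Myom1 minus Myom2 the centring of the array cancels, but a fitted dye difference of 0.45 (SE 0.39) remains. Myom1 minus Myom2 was 2.23 on DBA 1 against BL6 1, a 4.71-fold divergence with the dye difference included. It was 1.16 on BALB 2 against BL6 2 and 0.60 on BL10 2 against DBA 1. On BL10 1 against BALB 2 it was 0.35. It turned negative on DBA 2 against BALB 1 at −0.99, on CBA 1 against BL10 1 at −0.46 and on CBA 2 against BL10 2 at −0.20. On BL6 1 against DBA 2 it was −0.08, so that this array, with BL6 in Cy5, showed next to no divergence while the array with BL6 1 in Cy3 showed the greatest of the 8.

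The same BL6 animal against both DBA animals gives a value in which a dye effect of the gene cancels. The difference of these arrays, multiplied by 0.5, put Myom1 higher in DBA than in BL6 1 by 0.94 on the log2 scale (1.92-fold) and Myom2 lower in DBA, with a value of −0.21. Their sum multiplied by 0.5, which holds the dye effect and the difference between DBA 1 and DBA 2 together, was 0.51 for Myom1 and −0.57 for Myom2. For Myom2 this sum exceeded the strain difference in size. Dye and animal cannot be told apart here.

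Strain levels relative to the mean of the 5 strains were fitted over the 8 arrays with limma, with a dye effect for each gene and the animal as replicate. Myom1 stood at −0.76 in BL6 (SE 0.20), at 0.00 in DBA (SE 0.16), at 0.01 in CBA (SE 0.29), at 0.26 in BL10 (SE 0.17) and at 0.49 in BALB (SE 0.19). BL6 lay below DBA, the next strain in this order, by 0.76 (SE 0.22). The other neighbours did not differ beyond their error, with steps of 0.01 between DBA and CBA (SE 0.41), 0.25 between CBA and BL10 (SE 0.26) and 0.23 between BL10 and BALB (SE 0.32). Between the extremes, BL6 was lower than BALB by 1.25 (SE 0.23), a 2.38-fold difference.

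Against the mean of the 4 other strains, Myom1 was lower in BL6 by a log2 difference of −0.95 (SE 0.26), or 1.93-fold. The median of this difference over the 7697 features tested was 0.04, their 5th and 95th percentiles were −0.47 and 0.45, and 0.507% of the features had a lower value than Myom1. The span of the Myom1 levels, 1.25, compares with a median span of 0.45, and 2.0% of the features had a wider one. The value was −0.57 without BALB 1 and −1.70 without BL6 1. The shared values of the identical arrays stood at 0.52 for Myom1. Entered as BL6 2 against CBA 1 they reduced the difference to −0.61, with a fitted level of −0.49 in BL6 and −0.40 in CBA, and entered as BALB 1 against CBA 2 they gave −0.99.

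The levels of Myom2 spanned 0.56, and 34.8% of the features had a wider span. Myom2 stood at 0.37 in CBA (SE 0.28), 0.00 in BL6 (SE 0.19), −0.02 in DBA (SE 0.15), −0.16 in BL10 (SE 0.16) and −0.19 in BALB (SE 0.18). No neighbours in this order differed beyond their error, with steps of 0.37 from CBA to BL6 (SE 0.43), 0.03 from BL6 to DBA (SE 0.21), 0.13 from DBA to BL10 (SE 0.27) and 0.03 from BL10 to BALB (SE 0.30). The difference of BL6 from the 4 other strains was 0.00 (SE 0.24). It was −0.31 without BALB 1 and 0.51 without BL6 1. The CBA level turned to −0.018 without a dye term and to −0.31 without BL6 1.

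**Figure D2:**
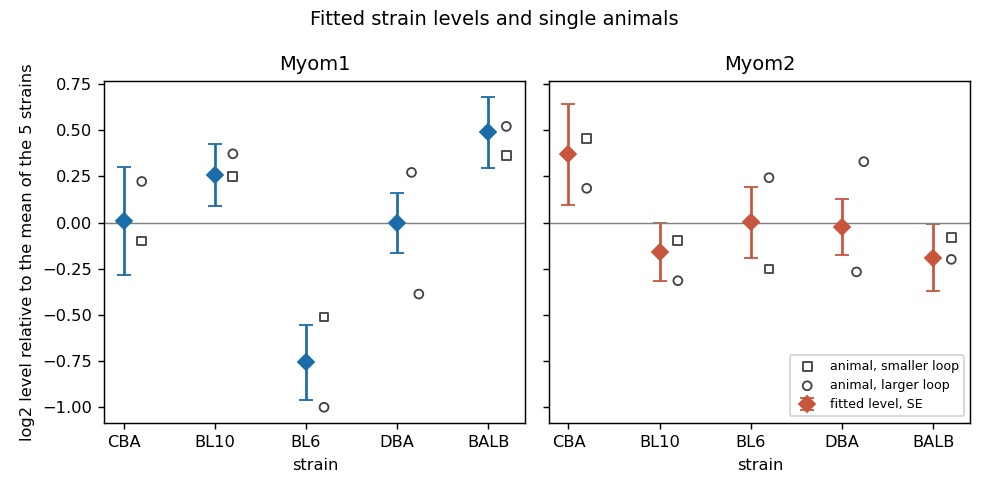
Fitted log2 levels (y axis, relative to the mean of the 5 strains) of Myom1 and Myom2 in each strain (x axis), as diamonds with SE bars, and levels of the single animals as open squares (smaller loop) and circles (larger loop). Each BL6 animal is the lowest of its loop for Myom1, at −0.51 (smaller) and −1.0 (larger), while for Myom2 they lie on either side of 0. The height of one loop against the other comes from the fit.

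The levels of single animals were read along each chain after removal of the fitted dye effect, and each loop was placed at the mean of the fitted levels of its strains. For Myom1, BL6 1 stood at −1.0 and BL6 2 at −0.51, each the lowest animal of its loop. The order of animals from different loops rests on the placement of the loops and was not measured. BALB 1 stood at 0.52, BALB 2 at 0.36, BL10 2 at 0.37 and BL10 1 at 0.25. CBA 2 stood at 0.22 and CBA 1 at −0.10, and DBA 1 at 0.27 and DBA 2 at −0.39. The separation of the DBA animals moves with the dye estimate and is no measure of variation within DBA.

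For Myom2 the animals of the strains overlapped. The highest were CBA 1 at 0.46 and DBA 2 at 0.33, followed by BL6 1 at 0.24 and CBA 2 at 0.19. The lowest were BL10 2 at −0.32, DBA 1 at −0.27, BL6 2 at −0.25 and BALB 1 at −0.20. BL10 1 and BALB 2 stood at −0.10 and −0.08. With the loops placed in this way, the BL6 animals lay on opposite sides of the strain mean, as did the DBA animals, which share a loop.

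Differences that both loops measure show how far separate animals gave the same answer. The loops share no animal, but the same dye estimate enters both. It enters for each array on the chain between a pair of animals, and so unequally in the loops for the pairs with BALB. How closely those pairs agree depends on that estimate. For Myom1, BL6 minus BALB was −0.88 from the smaller loop and −1.52 from the larger. BL10 minus BL6 was 0.76 and 1.38, and CBA minus BL6 was 0.41 and 1.23. BL6 was the lower strain in both loops in each of these pairs, with the larger values in the loop of BL6 1. Within the larger loop, each pair without BL6 was smaller in size than each pair with BL6. Within the smaller loop, CBA minus BALB exceeded CBA minus BL6 in size. From the smaller and the larger loop, CBA minus BALB was −0.46 and −0.30, and CBA minus BL10 was −0.35 and −0.15. BL10 minus BALB was −0.11 and −0.15.

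For Myom2 the pairs with BL6 changed sign from one loop to the other. BL6 minus BALB was −0.17 from the smaller loop and 0.44 from the larger, BL10 minus BL6 was 0.15 and −0.56, and CBA minus BL6 was 0.71 and −0.06. The pairs of CBA with BL10 (0.55 and 0.50) and with BALB (0.54 and 0.39) had 1 sign in both loops. CBA minus BALB spans all 5 arrays of the larger loop and fewer in the smaller, so the dye estimate enters it unequally. Its sign thus rests on that estimate. CBA minus BL10 is measured directly on 1 array in each loop, with CBA in Cy5 on both, so a change in the dye estimate would shift both values alike.

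**Figure D3:**
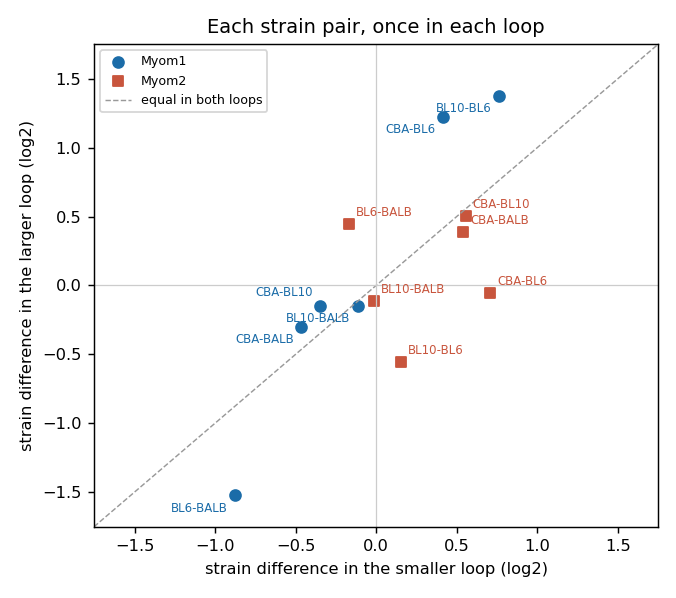
Difference between 2 strains (log2) in the smaller loop (x axis) and in the larger loop (y axis) for the 6 strain pairs present in both, with Myom1 as blue circles, Myom2 as red squares and a dashed line for equal values. The Myom1 pairs with BL6 lie farthest from the origin with 1 sign in both loops, from 0.41 to 1.52 in size, while the Myom2 pairs with BL6 fall in the quadrants of opposite sign.

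The contrast of the paralogues was fitted in the same way, with an SE from the 3 residual degrees of freedom of the difference itself. Myom1 minus Myom2 had a log2 difference of −0.95 between BL6 and the average of the 4 other strains (SE 0.72). It was −0.25 without BALB 1 and −2.21 without BL6 1. Between BL6 and BALB, the strains at the ends, the contrast differed by −1.44 (SE 0.65). Relative to the mean of the strains it stood at −0.76 in BL6 (SE 0.57), −0.36 in CBA (SE 0.82), 0.02 in DBA (SE 0.46), 0.42 in BL10 (SE 0.47) and 0.68 in BALB (SE 0.54). The SE exceeded the fitted contrast in CBA, DBA and BL10. The fitted dye effect was 0.17 for Myom1 (SE 0.14) and −0.27 for Myom2 (SE 0.13), where its median size over all features was 0.27.

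The features most like each myomesin were sought by Pearson's r over the 8 arrays after removal of the dye effect, among named features whose levels spanned at least 0.5 of the span of the myomesin. The arrays share animals and the fitted dye effects, and r is a description. For Myom1, 1883 features were searched. The closest were Msn (moesin, a linker of membrane and actin, r = 0.985), 2 oligonucleotides of Neb (nebulin, the giant protein along the thin filament, r = 0.985 and 0.982), Ms4a6d (r = 0.977) and Pde4d (a cyclic AMP phosphodiesterase, r = 0.977). Their differences of BL6 from the 4 other strains were −0.59 for Msn, −2.17 and −1.84 for Neb, −0.57 for Ms4a6d and −1.02 for Pde4d. The levels of both Neb oligonucleotides spanned more than those of Myom1. The one with r = 0.985 (X70032) had the order of the strains seen for Myom1, while the other (AF203898) put DBA at 0.28 above BL10 at 0.26 and CBA at −0.25.

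For Myom2, 5348 features were searched, and the closest were Pola1 (a subunit of DNA polymerase alpha, r = 0.962), Asns (asparagine synthetase, r = 0.962), Nox4 (an NADPH oxidase, r = 0.959), Hnf4g (a nuclear receptor, r = 0.952) and Mnx1 (a homeobox factor, r = 0.941). They are not structural proteins of muscle, and their levels spanned 0.28 to 0.68. Myom1 and Myom2 themselves had r = −0.632 by this measure.

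Of 22 genes listed as partners of the myomesins or neighbours at the M-band, 14 were on the array with 15 features, and of 18 thick filament genes 2 were. Titin, obscurin, Myom3 and the myosin heavy chains were not analysed here. For the strain effect in limma, 0 of these 17 features passed an FDR of 10%, where 0.130% of all features did. At an unadjusted p under 0.05, 5 of 17 did (29.4%), against 14.0% of all features. The 5 were Cryab, Mybph, Mybpc3, Eno3 and Fhl2. With every animal kept, the count at this p ranged from 1 without a dye term to 7 from the second spot alone. Both counts were unstable when 1 animal was left out, in fits with 1 or 2 residual degrees of freedom. The share of all features called in those fits is not given, so their counts are not set against a background.

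Cryab, the small heat shock protein alpha-B-crystallin, was lowest in CBA at −0.98 and highest in BALB at 0.54, relative to the strain mean (limma, adjusted p = 0.154). Mybph, myosin-binding protein H, ranged from −0.34 in BL6 to 0.67 in BALB (adjusted p = 0.154 from limma). Mybpc3, the cardiac form of myosin-binding protein C, ranged from −0.62 in BL6 to 1.11 in CBA (adjusted p = 0.202 from limma). The arrays with CBA read 0.052 and −0.016 for Mybpc3, so its CBA level rests on the fitted dye effect of −0.87. Of the 2 oligonucleotides of Eno3, the muscle enolase, 1 stood at −0.25 in CBA, its lowest strain, and at 0.49 in BALB, its highest (limma, adjusted p = 0.262). The other is not among the 5 (limma, unadjusted p = 0.095). It was lowest in BL6 at −0.20, with CBA at −0.09, and highest in BALB at 0.39. Fhl2, a LIM protein that binds titin at the M-band, ranged from −0.18 in CBA to 0.34 in BL6 (adjusted p = 0.355 from limma). The low CBA levels of the first Eno3 oligonucleotide and of Fhl2 likewise rest on fitted dye effects, of 0.45 and 0.31. BALB was thus the highest strain in 3 of the 5, as it was for Myom1, and BL6 was the lowest in Mybph and Mybpc3. BL6 was not set apart in either, with Mybph at −0.33 in BL10 and Mybpc3 at −0.52 in BALB. The largest SE of a level was 0.24 for Mybph and 0.22 for Mybpc3.

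In BL6 against the 4 other strains, 0 of the 17 features passed an FDR of 10%, where 0.0650% of all features did. This count was likewise unstable when 1 animal was left out, in fits for which the share of all features called is not given. At an unadjusted p under 0.05 from limma, 2 were lower, against 6.64% of all features, and 2 were higher, against 8.38%. The lower ones were Mybpc3 by −0.78 (SE 0.19) and Sqstm1 by −0.51 (SE 0.22), the autophagy adaptor p62 that takes part in signalling from the titin kinase. The higher ones were Fhl2 by 0.43 (SE 0.14) and Ank1 by 0.41 (SE 0.16), named after its values were seen, whose small muscle form binds obscurin. With all 10 arrays as labelled the value of Mybpc3 was 0.00295, that of Sqstm1 −0.14, that of Fhl2 0.20 and that of Ank1 0.093. Without a dye term Mybpc3 turned to 0.13 and Fhl2 fell to 0.092, and without BL6 1 Ank1 turned to −0.20. The median difference of the 17 features was −0.12 and that of all features 0.04. Ldb3, a protein of the Z-disc rather than the M-band, stood at −0.58 (SE 0.31). The Myom1 value of −0.95 was lower than that of each of the 17. Myom1 was selected with this pattern known and the 17 were not, so its place below them is no test.

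**Figure D4:**
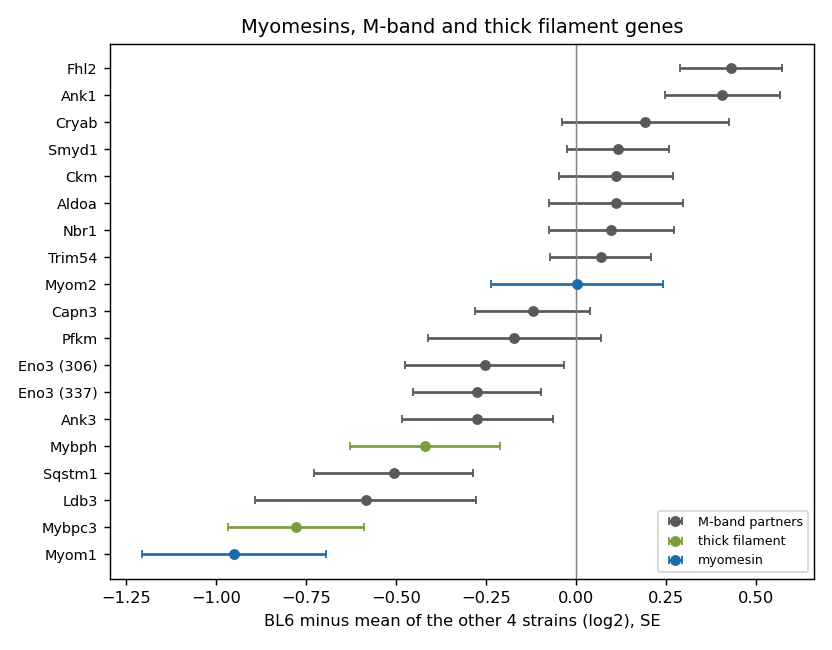
Difference of BL6 from the mean of the 4 other strains (x axis, log2, bars are SE) for Myom1 and Myom2 (blue), 15 features of M-band partners (grey) and 2 of thick filament genes (green), in order of size (y axis). Myom1, selected with its pattern known, is the lowest at −0.95. Myom2 lies at 0.00 among genes whose bars cross 0.

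Markers of fibre type were read beside the myomesins, because M-protein is typical of fast fibres. Of 7 features of fast fibre genes, 1 passed an FDR of 10% between the strains, against 0.130% of all features. This was the calcium buffer Pvalb, at −1.07 in CBA and 0.83 in DBA (adjusted p = 0.0624 from limma). The arrays with CBA read −0.060 and 0.13 for Pvalb, so its CBA level rests on the fitted dye effect of 0.74. At an unadjusted p under 0.05, 4 of the 7 differed between the strains, against 14.0% of all features. In BL6 2 of the 7 were lower at this p, against 6.64% of all features, and 0 higher, against 8.38%. The lower ones were Tnnt3 at −0.75 (SE 0.22) and Tnnc2 at −0.75 (SE 0.31), both subunits of fast troponin. The median difference of the 7 in BL6 was 0.05. Of 9 features of slow fibre genes, 0 passed the FDR and only Casq2, the slow and cardiac calsequestrin, reached an unadjusted p under 0.05 in the strain test, which is 1 of 9 features (11.1%) against 14.0% of all. In BL6, Casq2 was at −0.46 (SE 0.16) and Atp2a2, the slow calcium pump, at 0.43 (SE 0.16), 1 lower and 1 higher at this p, with a median of 0.16 over the list. Atp2a2 turned to −0.13 without a dye term, and Pvalb in BL6, 0.14 above the 4 other strains, turned to −0.95 with all 10 arrays. CBA, the strain with the highest Myom2, had the lowest Pvalb, and the CBA medians were −0.36 for the fast and −0.19 for the slow list. All of these CBA levels rest on the fitted dye effects of the genes.

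Markers of other cell types were also read in BL6, where Myom1 was low, against a background of 6.64% of all features lower and 8.38% higher at an unadjusted p under 0.05. Of 6 fibroblast features 2 (33.3%) were lower at this p, Col1a1 by −0.81 (SE 0.17) and Col3a1 by −1.25 (SE 0.26), and 1 of 2 oligonucleotides of Pdgfra was higher by 0.49 (SE 0.15). Of 6 leukocyte features 2 (33.3%) were lower, C1qa by −1.02 (SE 0.18) and Cd68 by −0.51 (SE 0.16). Of 4 adipocyte features 1 was lower, Cidec by −0.71 (SE 0.19), and of 6 endothelial features 1 was higher, Tek by 0.35 (SE 0.14). Of 3 erythroid and 5 Schwann cell features 0 had an unadjusted p under 0.05 from limma, and none of these lists had a feature past an FDR of 10%. The list medians in BL6 against the 4 other strains were −0.26 for fibroblasts, −0.11 for leukocytes, −0.29 for adipocytes, 0.15 for endothelium, 0.09 for erythroid cells and 0.00 for Schwann cells. With all 10 arrays as labelled, C1qa stood at 0.22, Cd68 at 0.34, Col3a1 at 0.12 and Cidec at 0.050, all on the other side of 0, and Col1a1 at −0.15. Without a dye term C1qa stood at 0.14 and Cd68 at 0.034. Myom1 stayed below 0 in both settings, as did Col1a1, at −0.15 with all 10 arrays and −0.85 without a dye term. The part of these markers in the Myom1 result was not tested.

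**Figure D5:**
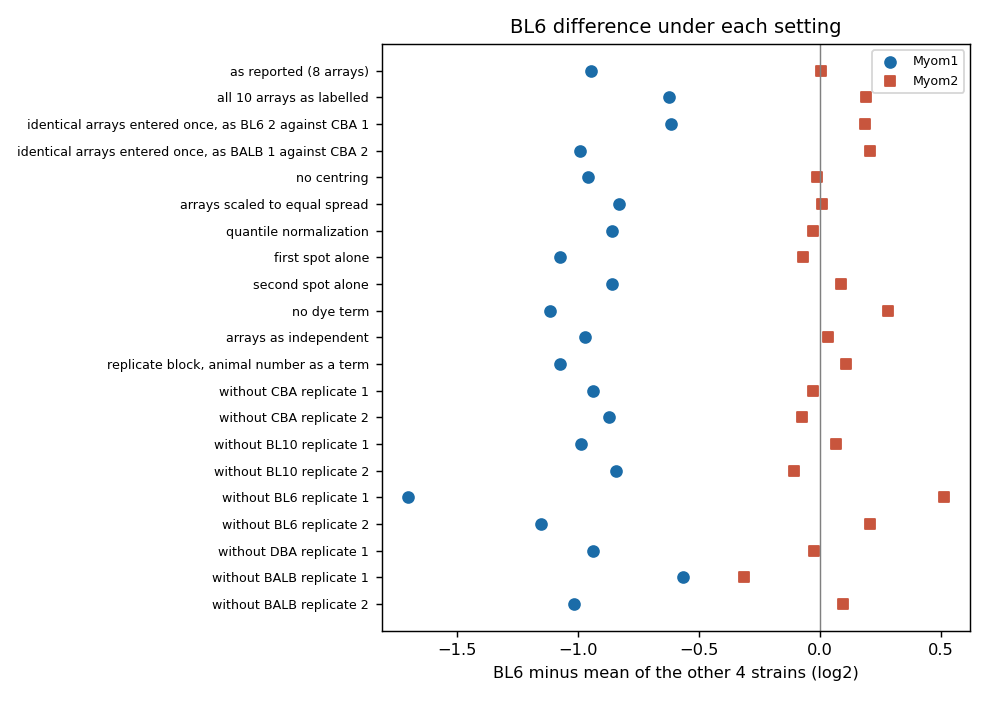
Difference of BL6 from the mean of the 4 other strains (x axis, log2) for Myom1 (blue circles) and Myom2 (red squares) under each processing setting (y axis). Myom1 lies below 0 throughout, between −1.70 and −0.57, and Myom2 on either side of 0, between −0.31 and 0.51.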

How the data were processed

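The deposited table holds a Cy5 to Cy3 ratio for each of 15552 spots on 10 arrays with 2 dyes. The authors quantified spots in GenePix Pro, corrected them for local background and normalized them with VSN, so the deposited values were read as natural log ratios, the scale that VSN gives. The scale is stated in no file, and the direction comes from the dyes in the labels. Spot brightness was not given, and the number of arrays limits the precision.

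Here the ratios were converted to log2, duplicate spots were averaged, 80 features of the Gapdh control oligonucleotide were merged to 1, and arrays were centred at a median of 0 (7697 features, 6752 with 1 symbol, of which symbols were updated through the GRCm38.p6 gene table). limma 3.58.1 in R 4.3.3 was fitted with terms for strain and dye on 8 arrays, with 1 ratio of animal to array variance estimated by REML (0.446), 3 residual and 6.13 prior degrees of freedom. P-values were adjusted over all 7697 features (Benjamini-Hochberg) and called at an FDR of 10%. The labels give 2 animals a strain, so p-values rest on the spread between these arrays. Animal levels used MASS 7.3.60.0.1, and figures matplotlib 3.10.9. The code was run on data simulated from the fitted model itself, which checks the code and not whether the model suits these arrays. Alternatives were the identical arrays, centring, scaling, single spots, the dye term, the animal block and leaving out each animal.

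The genes, lists and settings were chosen with earlier results of these data known. The named list genes are up to 6 features of each list with the smallest p between strains, any past the FDR, and the 5 features most correlated with each myomesin.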

Additional observations from a re-analysis of the deposited data

How the results depend on the processing

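Of the alternative settings, 20 applied to the myomesins. Myom1 in BL6 minus the 4 other strains was negative in all 20, and Myom1 minus Myom2 likewise, while Myom2 changed sign between them. Myom1 was −0.62 with all 10 arrays as labelled and −0.61 with the shared values as BL6 2 against CBA 1. Leaving out 1 animal gave −1.70 to −0.57 for Myom1, −0.31 to 0.51 for Myom2 and −2.21 to −0.25 for their contrast, which was −1.40 without a dye term. The Myom2 level in CBA turned to −0.018 without a dye term and lay between −0.31 (without BL6 1) and 0.93 (without BALB 2) when 1 animal was left out, and in BL6 without BL6 1 Ankrd2 turned to 1.36, Ptprc to 1.04 and Ank1 to −0.20. The ranges without 1 animal were −0.62 to 1.36 for Ankrd2, −0.46 to 1.04 for Ptprc and −0.20 to 0.49 for Ank1. Of the 2 oligonucleotides of Mbp, 1 ranged from −2.64 to 0.43, and the Mbp values below are those of this one. The other ranged from −0.20 to 0.30. Other differences of list genes in BL6 that changed sign, with an unadjusted p under 0.05 before or after, were, with all 10 arrays and with the shared values as BL6 2 against CBA 1, Pvalb (−0.95 and −0.90), Casq1 (−0.41 and −0.40), Atp2a1 (−0.43 and −0.42), Cidec (0.050 and 0.035), Col3a1 (0.12 and 0.096), C1qa (0.22 and 0.18), Cd68 (0.34 and 0.31) and Mbp (0.57 and 0.55). Mybpc3 turned to 0.00295 with all 10 arrays and 0.13 without a dye term, Cd68 to 0.13 where BALB 1 against CBA 2 was entered alone, and Mbp to 0.29 without BALB 2. Without a dye term Atp2a2 turned to −0.13, C1qa to 0.14 and Cd68 to 0.034. The cause was not tested. Leaving out DBA 2 could not be fitted, because the dye effect is then not estimable.

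Of the 17 M-band and thick filament features, those that differed between strains at an FDR of 10% numbered 2 with equal array spreads, 2 after quantile normalization, 1 with the shared values as BL6 2 against CBA 1, and 0 to 13 without 1 animal. At an unadjusted p under 0.05 they numbered 2 with all 10 arrays, 3 with the shared values under either label, 1 without a dye term, 3 in the test without shared spread, and 4 to 13 without 1 animal. In BL6 the FDR count was 0 to 9 without 1 animal, and that at an unadjusted p under 0.05, 4 as reported, was 1 with all 10 arrays, from the first spot alone or with the shared values as BL6 2 against CBA 1, 2 without a dye term, 2 when each feature kept its own spread, and 1 to 9 without 1 animal. The highest counts came from fits with 1 residual degree of freedom. The animal number as a replicate block gave −1.08 for Myom1 and 0 features at the FDR; equal numbers name different animals and the number is no pairing.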
